A study of Homo sapiens with 6 samples.

Results

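Periplakin (PPL) and 8 further genes of desmosomes and tight junctions (EVPL, DSP, JUP, PKP2, TJP1, CLDN1, OCLN and F11R) were followed across 3 groups of human glioma cells. Of the 9 members, 8 are among the 19775 genes named by the array's probe table, and F11R, the junctional adhesion molecule JAM-A, is not analysed here because no probe set used carries its symbol. The 8 genes had 14 probe sets, and the probe set with the highest mean over the 6 arrays stood for the gene. PPL was chosen by its log2 difference between U87MGR and U87MG on these same arrays, so its levels are a description without a test, and the other members are its relatives at the same junctions.

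Total RNA of cultured cells was measured on 6 single-colour arrays, 2 per group. U87MGR cells were labelled highly invasive, with 1 array each titled U87MGR2 and U87MGR3. U87MGL cells were labelled non-invasive, with 1 array each titled U87MGL2 and U87MGL3. Both were derived from U87MG, an established human glioblastoma line. They went through 4 rounds of injection into the striatum of nude mice, recovery from the brain and culture. The parental U87MG cells had 2 arrays and carry no label of passage through mice. Replicate 1 of a derivative is therefore the sample numbered 2 and replicate 2 the sample numbered 3. The labels do not say whether these are sublines from separate mice. The spread within a derivative includes any such difference. The p-values below measure the spread between these samples only.

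Desmosomes are spot-like junctions in which desmosomal cadherins are tied through plakoglobin and plakophilins to desmoplakin, and through it to intermediate filaments. Periplakin and envoplakin are plakins, relatives of desmoplakin, that associate with each other, with intermediate filaments and with the cell border, and they are best known from the envelope of epidermal keratinocytes. Tight junctions seal the space between epithelial or endothelial cells with claudins, occludin and junctional adhesion molecules, which ZO scaffold proteins link to actin. In the brain, tight junctions are known chiefly from the blood vessels, and ZO-1 is also found in astrocytes and glioma cells.

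The array medians lay between 5.29 and 5.35 on the log2 scale. Spiked-in control probe sets parted the arrays into 3 batches that cut across the groups. One batch held U87MGR replicate 1 with both U87MGL arrays, another held U87MGR replicate 2 with U87MG replicate 1, and U87MG replicate 2 stood alone, with distances of 0.90 to 1.44 within batches and 5.59 to 8.84 between them. Differences within a batch are therefore given beside those of the main genes, and no batch held both U87MGL and U87MG. Actin controls read 0.22 to 0.39 higher at the 3′ than at the 5′ end except on U87MG replicate 1, where the gap was -0.01. Of 5 markers of cultured mesenchymal glioma cells, VIM, CD44 and TGFBI lay above the 99th percentile of all probe sets. CHI3L1 lay at 96.6 and NES at 83.1, and the list had 1 call in each comparison with U87MG. CHI3L1 was at 10.46 and 10.10 in U87MGR, 9.83 and 8.58 in U87MGL and 13.35 and 13.32 in U87MG. NES went the other way, at 8.24 and 9.61 in U87MGR, 8.80 and 8.98 in U87MGL and 8.23 and 7.27 in U87MG. Of the astrocyte markers, SLC1A3 lay at percentile 89.3, GFAP at 49.5, AQP4 at 16.7 and S100B at 9.91.

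Upstream sequences were read for 5 of the members in RefSeq (GRCh38.p14), which gave 10 start sites, and PPL, EVPL, PKP2 and F11R had no entry. The E-box CAGGTG, read on both strands as CAGGTG or CACCTG, is the site bound by the repressors SNAI2 and ZEB1 in human junction genes. It lay in 5 of the 10 windows of 250 bases before a start site, against 17.5% of the 35116 windows of all genes. Shown 5′ to 3′ are the windows of a desmosomal member (DSP, chr6:7541421-7541670, plus strand), a tight junction membrane protein (OCLN, chr5:69492297-69492546, plus strand, the first of 2 start sites) and a scaffold gene (TJP1, chr15:29969050-29969299, minus strand, the first of 4). Capitals mark the E-box, and the windows show where it lies in 3 members.
DSP: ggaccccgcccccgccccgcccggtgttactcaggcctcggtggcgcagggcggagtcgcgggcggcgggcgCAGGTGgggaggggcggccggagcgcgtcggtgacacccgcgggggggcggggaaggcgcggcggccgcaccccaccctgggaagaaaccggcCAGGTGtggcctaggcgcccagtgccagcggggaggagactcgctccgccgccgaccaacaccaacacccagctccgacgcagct
OCLN: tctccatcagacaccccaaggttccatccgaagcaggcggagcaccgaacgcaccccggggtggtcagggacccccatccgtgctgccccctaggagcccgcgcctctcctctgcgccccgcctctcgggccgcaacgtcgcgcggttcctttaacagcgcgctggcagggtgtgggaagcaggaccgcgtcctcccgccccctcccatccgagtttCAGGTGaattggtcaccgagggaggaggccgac
TJP1: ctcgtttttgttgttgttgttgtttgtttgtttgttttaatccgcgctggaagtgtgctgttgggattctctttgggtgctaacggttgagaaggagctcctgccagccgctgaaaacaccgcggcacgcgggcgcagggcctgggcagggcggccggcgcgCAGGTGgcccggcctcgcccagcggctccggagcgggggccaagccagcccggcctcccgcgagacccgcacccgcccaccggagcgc
The DSP window held the E-box 178 and 85 bases before the start, the OCLN window 33 bases before it and the TJP1 window 88 bases before it. The other 3 TJP1 windows and the CLDN1 window held none, and of the 2 JUP windows the second held 2.

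PPL encodes periplakin. Its log2 signal was 5.78 and 5.69 on the U87MGR arrays, 9.30 and 6.81 on the U87MGL arrays and 9.46 and 9.52 on the U87MG arrays. Both parental arrays and the array of U87MGL2 were high, the array of U87MGL3 was intermediate and nearer to the invasive cells, and both U87MGR arrays were low. On its own array, the PPL probe set stood at percentiles 56.7 and 55.3 of all probe sets in U87MGR, at 88.7 and 67.4 in U87MGL and at 90.2 and 90.4 in U87MG. The U87MGR signal was 13.5-fold below that of U87MG (log2 difference -3.75). The arrays of U87MGR and U87MG did not overlap, as for 48.4% of all genes, but PPL was chosen by this difference. Replicates of U87MGR and of U87MG differed by 0.08 and -0.07. In such bulk RNA, fewer cells with PPL and less PPL RNA per cell cannot be told apart.

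The order of PPL levels was U87MGR, then U87MGL, then U87MG. The middle place was held by a mean of 8.06 ± 1.77 (SD, n = 2) over unlike arrays. The difference of U87MGL from U87MG (-1.43) was smaller than that SD. Both U87MGL arrays lay below both U87MG arrays, but U87MGL replicate 1 (9.30) only just below U87MG replicate 1 (9.46). These levels are a description without a test. The difference of U87MGR from U87MGL (-2.32) exceeded the SD but was smaller than the 2.50 by which the U87MGL arrays themselves differed. Without U87MGL replicate 1 it was -1.07, and without U87MGL replicate 2 it was -3.57. The difference of U87MGL from U87MG was likewise -2.68 and -0.18 without those arrays.

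The gap of 2.50 lay within a single spike-in batch. Of the 14513 genes tested, 5 differed between the U87MGL arrays by at least as much as PPL did, PPL included. The median absolute difference was 0.14. A gap at least as wide parted 5 genes between the U87MGR arrays and 12 between the U87MG arrays, with medians of 0.19 and 0.25. Within a batch, PPL differed by -3.76 between U87MGR and U87MG, and by -2.28 between U87MGR and U87MGL.

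**Figure D1:**
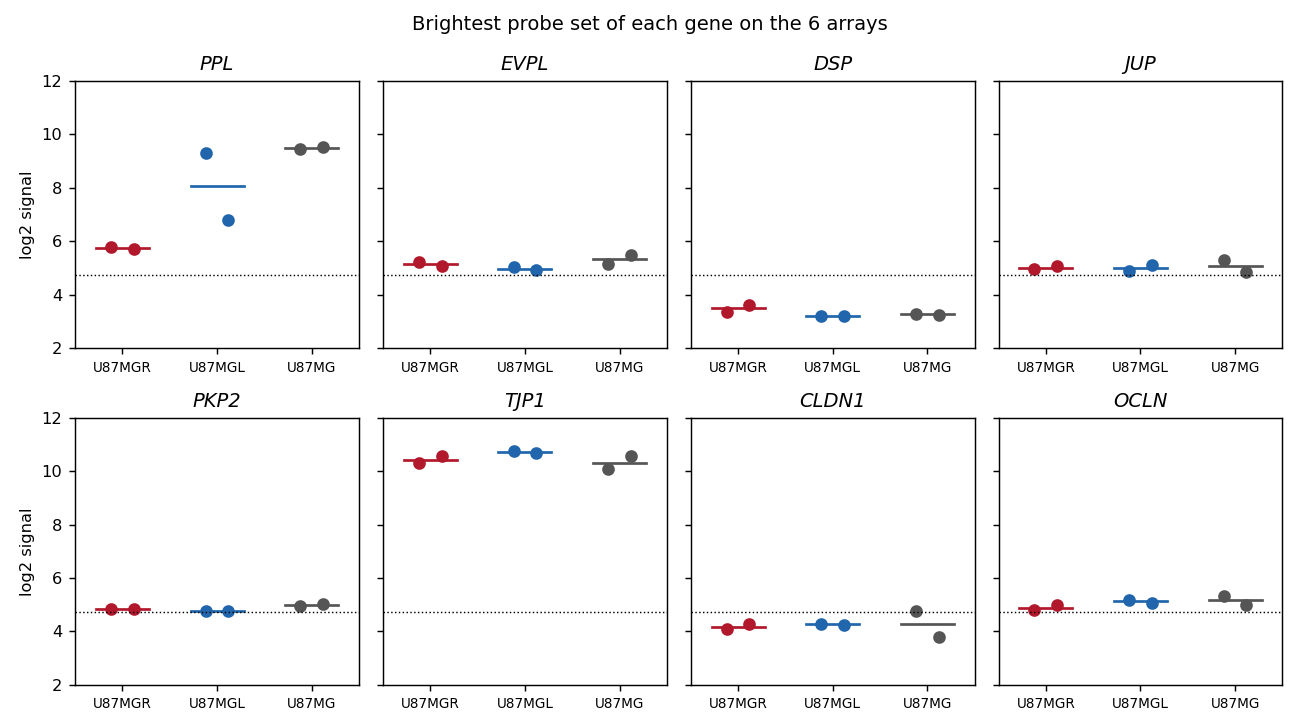
Log2 signal (vertical axis) of the brightest probe set of 8 genes on the 2 arrays (points) of U87MGR, U87MGL and U87MG, with the group mean as a bar. The dotted line is the filter on dim probe sets at 4.73; levels of different genes are not comparable. PPL is low in U87MGR (5.78 and 5.69) and differs between the U87MGL arrays (9.30 and 6.81), while DSP lies below the line on all 6 arrays.

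A gene entered the test if its brightest probe set averaged at least 4.73, the 40th percentile of all probe sets by mean signal. PPL, EVPL, JUP, PKP2, TJP1 and OCLN passed, and DSP and CLDN1 did not. Each difference was tested in one limma model over all 14513 genes, with Benjamini-Hochberg adjustment and a call at an adjusted p under 0.05. That model called 0.158% of all genes in U87MGR against U87MGL, 3.3% in U87MGR against U87MG and 4.82% in U87MGL against U87MG. By direction these were 0.0413% higher and 0.117% lower in the first, 1.86% and 1.44% in the second, and 3.02% and 1.8% in the third. Of the 5 tested members other than PPL, limma called 0 in each comparison, and 0 reached an unadjusted p under 0.05, as 8.85%, 20.8% and 23.3% of all genes did. With so few genes and such shares of all genes, a count of 0 does not set the members apart. Arrays of U87MGR and U87MGL did not overlap for 4 of the 5 (46.6% of all genes), with EVPL and PKP2 higher (23.3%) and TJP1 and OCLN lower (23.3%). Arrays of U87MGR and U87MG did not overlap for PKP2 and OCLN (48.4% of all genes), both lower (24.2%, with 24.2% higher). Arrays of U87MGL and U87MG did not overlap for 3 (56.4%), with TJP1 higher (28.1%) and EVPL and PKP2 lower (28.3%).

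EVPL encodes envoplakin, the plakin that pairs with periplakin. Its log2 signal was 5.22 and 5.06 in U87MGR, 5.03 and 4.93 in U87MGL and 5.15 and 5.50 in U87MG. All 6 arrays lay within 0.57, against a range of 3.83 for its partner PPL, which was chosen for its difference. EVPL averaged at percentile 47.2 of all probe sets, so a fall like that of PPL may not be measurable. U87MGR differed from U87MG by -0.18 (SE 0.18, 95% interval -0.60 to 0.24, limma adjusted p = 0.611; -0.08 within a batch) and from U87MGL by 0.16 (limma adjusted p = 0.831; 0.24 within a batch). U87MGL differed from U87MG by -0.35 (SE 0.18, limma adjusted p = 0.295). Between the U87MGL arrays EVPL differed by 0.10, against 2.50 for PPL.

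The desmosomal plaque members were dim in every group. DSP, desmoplakin, which anchors intermediate filaments to the desmosome, had a log2 signal of 3.35 and 3.62 in U87MGR, 3.22 and 3.21 in U87MGL and 3.29 and 3.25 in U87MG. Its mean was at percentile 11.1 of all probe sets, so the comparison was not tested in the main fit. Both U87MGR arrays were the highest, by a difference of 0.27 from U87MGL and 0.21 from U87MG. With no filter on dim probe sets, limma gave adjusted p-values of 0.686 and 0.545 for these differences.

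JUP, plakoglobin, joins desmosomal cadherins to the plaque and also binds classical cadherins. Its log2 signal was 4.94 and 5.06 in U87MGR, 4.89 and 5.12 in U87MGL and 5.29 and 4.86 in U87MG, and the groups overlapped. U87MGR differed from U87MG by -0.07 (SE 0.20, 95% interval -0.53 to 0.39, limma adjusted p = 0.872; -0.23 within a batch). PKP2, plakophilin 2, which clusters desmoplakin at the membrane, was at 4.85 and 4.84 in U87MGR, 4.77 and 4.76 in U87MGL and 4.94 and 5.01 in U87MG. The parental arrays were the highest and the groups did not overlap, but the differences were small. U87MGR differed from U87MG by -0.13 (SE 0.15, limma adjusted p = 0.66; -0.10 within a batch) and U87MGL from U87MG by -0.21 (limma adjusted p = 0.424). The dimmer PKP2 probe set, at percentile 3.74, gave differences of 0.16 and 0.07, so it did not share this direction.

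TJP1, which encodes the scaffold ZO-1, lay at percentile 95.2. Its log2 signal was 10.29 and 10.55 in U87MGR, 10.76 and 10.69 in U87MGL and 10.07 and 10.57 in U87MG. Both U87MGL arrays were the highest of the 6, while U87MGR and U87MG overlapped. U87MGR differed from U87MGL by -0.30 (SE 0.21, 95% interval -0.79 to 0.19, limma adjusted p = 0.725; -0.43 within a batch), and U87MGL differed from U87MG by 0.40 (limma adjusted p = 0.296). The second TJP1 probe set gave -0.54 and 0.63 for the same comparisons (limma adjusted p = 0.593 and 0.185). It too was highest in U87MGL, since U87MGR averaged 7.84 ± 0.23, U87MGL 8.37 ± 0.21 and U87MG 7.75 ± 0.41 (SD, n = 2 each). For U87MGR against U87MG, TJP1 differed by 0.10, by 0.48 within a batch and by -0.15 without U87MG replicate 1, so no direction can be given.

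CLDN1 and OCLN, the tight junction membrane proteins among the members measured, were dim. CLDN1, claudin-1, which forms the paracellular seal, had a log2 signal of 4.08 and 4.26 in U87MGR, 4.29 and 4.23 in U87MGL and 4.75 and 3.77 in U87MG. The parental arrays held both the highest and the lowest value, and CLDN1 averaged at percentile 30.7 and was not tested in the main fit. OCLN, occludin, a membrane protein of the tight junction strand, was at 4.81 and 4.98 in U87MGR, 5.19 and 5.07 in U87MGL and 5.33 and 5.01 in U87MG. Both U87MGR arrays were the lowest. U87MGR differed from U87MGL by -0.23 (SE 0.18, limma adjusted p = 0.753; -0.32 within a batch) and from U87MG by -0.27 (SE 0.18, limma adjusted p = 0.43; -0.35 within a batch).

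OCLN had 4 probe sets, and the second brightest showed a wider gap. It gave 4.59 and 4.32 in U87MGR, 4.99 and 5.06 in U87MGL and 5.14 and 5.04 in U87MG. Both U87MGR arrays lay below the other 4, by -0.57 from U87MGL and -0.63 from U87MG. With this probe set in place of the brightest, limma gave adjusted p-values of 0.367 and 0.0868, and neither passed. The remaining probe sets were at percentiles 11.6 and 10.2, and U87MGR differed from U87MG by -0.19 and -0.12 on them.

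**Figure D2:**
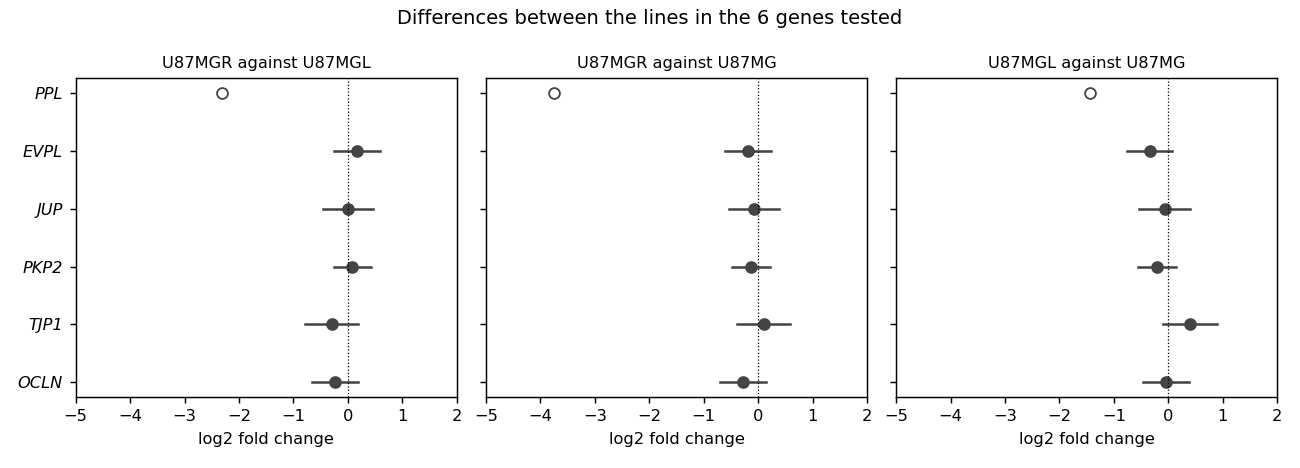
Log2 fold change (horizontal axis) of 6 genes, with U87MGR over U87MGL at left, U87MGR over U87MG in the middle and U87MGL over U87MG at right; bars are 95% limma intervals, and PPL is an open point without a bar because its difference chose the gene. Every interval shown reaches across 0, while PPL lies at -2.32, -3.75 and -1.43.

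The genes whose pattern was most like that of PPL were sought among 443 tested genes that ranged over at least 2 on the log2 scale. By Pearson correlation over the 6 arrays, which share 3 groups and so are not 6 independent conditions, the 5 nearest were INHBE (r = 0.99), PLAAT4 (0.97), IGDCC4 (0.97), MEST (0.96) and ARHGAP28 (0.96). INHBE encodes a chain of activin E and PLAAT4 a lipid acyltransferase. As genes picked for their likeness to PPL on these same arrays, each was higher in U87MGL replicate 1 than in U87MGL replicate 2, by 1.47, 1.42, 1.04, 1.68 and 1.42, against 2.50 for PPL. MEST, an imprinted gene of mesoderm, was at 9.33 and 9.34 in U87MGR, 11.94 and 10.27 in U87MGL and 11.33 and 11.30 in U87MG. INHBE was at 4.25 and 4.04 in U87MGR, 5.96 and 4.49 in U87MGL and 6.21 and 5.92 in U87MG. INHBE and IGDCC4 both lay under the filter of 4.73 on the U87MGR arrays and on U87MGL replicate 2. Part of their likeness to PPL is therefore dim signal. The other members ranged over too little to be among the candidates.

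**Figure D3:**
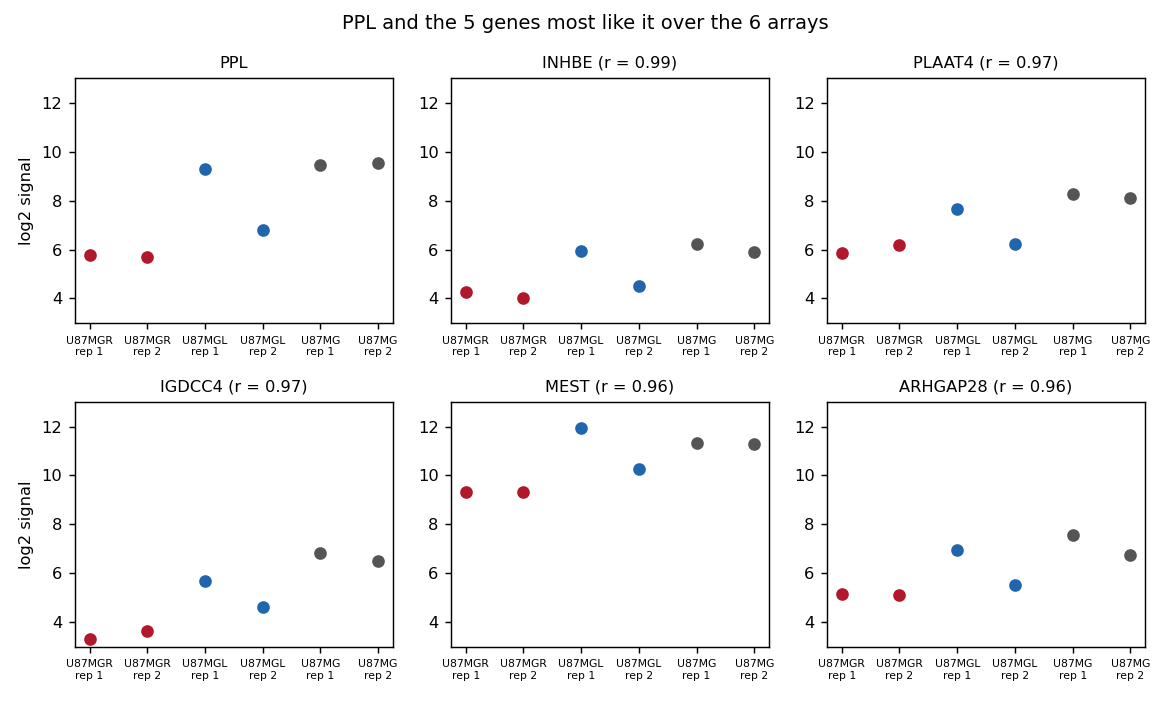
Log2 signal (vertical axis) of PPL and of the 5 genes with the highest Pearson correlation (r) with it, on each of the 6 arrays (horizontal axis), coloured by group. In every panel U87MGL replicate 1 lies above U87MGL replicate 2, as for PPL at 9.30 and 6.81; the genes were picked for this likeness on the same arrays.

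Other genes of the same structures were taken from 8 lists, which held 83 tested genes and gave 16 calls over the 3 comparisons. Of all genes, limma called 0.158% in U87MGR against U87MGL, 3.3% in U87MGR against U87MG and 4.82% in U87MGL against U87MG. At an unadjusted p under 0.05 the shares were 8.85%, 20.8% and 23.3%. The lists were chosen with earlier results known, so a list's count beside these shares is no test. The calls in the lists rest on few arrays. U87MGL and U87MG share no spike-in batch, so their own arrays cannot tell a difference between lines from one between batches. With 2 spike-in batches as a block, every list call of U87MGL against U87MG was lost. With 2 spike-in batches as a block 1 of the 16 remained, with 3 batches, a fit that drops U87MG replicate 2, 2 remained, and without a single array between 4 and 15 did. Where such a fit ended a call named below, the fold change kept its sign.

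Among other desmosome genes, 8 of 13 were tested. In U87MGL against U87MG 1 rose and 0 fell (median -0.13, all genes -0.02), and in both comparisons of U87MGR limma called 0 (1 and 3 at an unadjusted p under 0.05; medians 0.12 and 0.05). The gene that rose was PERP, a p53-induced membrane protein of desmosomes, at 10.99 and 10.99 in U87MGL and 9.93 and 10.04 in U87MG (log2 fold change 1.00, SE 0.15, limma adjusted p = 0.0193). This call was kept by 9 of 15 alternatives. In U87MGR, PERP was at 10.66 and 10.74, a difference from U87MG of 0.72 (limma adjusted p = 0.0524). PKP4, an armadillo protein of junctions, differed by -0.65 from U87MGL (limma adjusted p = 0.342) and by -0.79 from U87MG (0.0686). Of the desmosomal cadherins, DSG2 was at 9.78 and 9.66 in U87MGR, 9.42 and 9.66 in U87MGL and 9.60 and 9.62 in U87MG, while DSG1, DSG3, DSG4, DSC1 and DSC3 did not pass the filter. All 5 other plakins were tested and limma called 0 in any comparison. At an unadjusted p under 0.05 there were 0 in U87MGR against U87MGL and 1 in either comparison with U87MG, and the medians were -0.00, 0.33 and 0.33. PLEC, plectin, differed by 0.43 and 0.64 from U87MG in U87MGR and U87MGL (limma adjusted p = 0.185 and 0.0675), so the plakins as a group did not show the low U87MGR signal of PPL.

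Of the other claudins, 13 of the 19 on the array were tested. CLDN12, an atypical claudin, rose in both derivatives and was the 1 called claudin in each comparison with U87MG. It was at 10.75 and 10.46 in U87MGR, 10.23 and 10.36 in U87MGL and 9.44 and 9.44 in U87MG. The log2 fold change was 1.16 in U87MGR (SE 0.17, limma adjusted p = 0.0239; 1.02 within a batch) and 0.85 in U87MGL (SE 0.17, limma adjusted p = 0.0388). Of 15 alternatives, 10 kept the U87MGR call and 7 the U87MGL call. The claudin medians were -0.04 and -0.11 in these comparisons, against -0.01 and -0.02 for all genes, and 0.12 in U87MGR against U87MGL, where limma called 0 (1 at an unadjusted p under 0.05). CLDN7 differed by -0.86 from U87MGL there (limma adjusted p = 0.241).

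Among 10 tested membrane proteins of tight junctions, ILDR2, an angulin-family protein of tricellular junctions, was at 4.52 and 4.15 in U87MGR, 6.14 and 6.22 in U87MGL and 4.76 and 4.44 in U87MG. Both U87MGL arrays were the highest, and the means of U87MGR (4.34) and U87MG (4.60) lay under the filter of 4.73, which ILDR2 passed through U87MGL, so its folds are set against dim signal. It fell in U87MGR against U87MGL (log2 fold change -1.84, SE 0.20, limma adjusted p = 0.0281; -1.66 within a batch) and rose in U87MGL against U87MG (1.58, SE 0.20, limma adjusted p = 0.0135). With the mean of its probe sets these values were -1.07 (limma adjusted p = 0.0678), where the call was lost, and 0.87 (limma adjusted p = 0.024). The comparison of U87MGR with U87MG gave 0 calls in limma in this list, with 0 at an unadjusted p under 0.05 and LSR at 0.62 (limma adjusted p = 0.327). The list median was 0.00 for U87MGR over U87MGL, and -0.13 and 0.23 for U87MGR and U87MGL over U87MG.

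Of 16 tested scaffold and polarity genes, limma called 0 in U87MGR against U87MGL (1 at an unadjusted p under 0.05), 1 rose in U87MGR against U87MG, and 1 rose and 1 fell in U87MGL against U87MG. AMOTL2, an angiomotin-like protein that binds YAP, was at 9.31 and 9.46 in U87MGR, 9.62 and 9.38 in U87MGL and 8.50 and 8.45 in U87MG. It rose by 0.91 in U87MGR (SE 0.16, limma adjusted p = 0.0371; 0.96 within a batch) and by 1.02 in U87MGL (SE 0.16, limma adjusted p = 0.023). The U87MGR call was kept by 7 of 15 alternatives and the U87MGL call by 8. MPDZ, the multi-PDZ scaffold MUPP1, was lowest in U87MGL, at 7.19 and 7.58 against 8.56 and 8.61 in U87MG, and fell by 1.20 there (SE 0.18, limma adjusted p = 0.0193). In U87MGR it was at 8.22 and 8.26, and 8 of 15 alternatives kept the U87MGL call. The list median was -0.04 for U87MGR over U87MGL, and -0.06 for either derivative over U87MG.

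Periplakin is a component of the cornified envelope, and 10 of the 19 envelope genes on the array were tested. In U87MGR against U87MG 2 fell and 0 rose (median -0.24), where 1.44% of all genes fell. In U87MGL against U87MG 3 fell and 0 rose (median -0.21), where 1.8% of all genes fell. In U87MGR against U87MGL limma called 0, with 3 at an unadjusted p under 0.05 (8.85% of all genes) and a median of 0.10. CSTA, cystatin A, an inhibitor of cysteine proteases, was at 6.21 and 4.97 in U87MGR, 6.91 and 6.95 in U87MGL and 10.15 and 9.50 in U87MG. Its log2 fold change against U87MG was -4.24 in U87MGR (SE 0.40, limma adjusted p = 0.0125; -5.18 within a batch) and -2.90 in U87MGL (SE 0.40, limma adjusted p = 0.0175). Of 15 alternatives, 14 kept the U87MGR call and 11 the U87MGL call. The U87MGR call was lost without U87MGR replicate 2, where the value was -3.61. SBSN, suprabasin, a secreted protein of differentiating keratinocytes, was at 7.84 and 8.05 in U87MGR, 7.45 and 7.26 in U87MGL and 9.73 and 10.48 in U87MG. Its log2 fold change was -2.16 in U87MGR (SE 0.26, limma adjusted p = 0.0185; -1.68 within a batch) and -2.75 in U87MGL (SE 0.26, limma adjusted p = 0.00795). Both genes lay well below U87MG on either U87MGL array, where PPL did so on 1 alone.

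SPRR3, a small proline-rich envelope precursor, fell by 0.69 in U87MGL against U87MG (SE 0.15, limma adjusted p = 0.0491), a call that 2 of 14 alternatives kept. PI3, elafin, an inhibitor of elastase that is crosslinked into the envelope, split the U87MGL arrays the other way, at 7.30 and 9.50, with 7.22 and 6.60 in U87MGR and 7.85 and 7.33 in U87MG. The keratinocyte envelope genes IVL, LORICRIN and FLG did not pass the filter on dim probe sets.

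Intermediate filament genes, whose products plakins bind, were tested for 12 of 15 on the array. VIM, vimentin, was at 14.46 and 14.43 in U87MGR, 14.46 and 14.44 in U87MGL and 14.45 and 14.30 in U87MG, at percentile 99.99 of all probe sets, near the top of the array's range, where a difference may not be measurable. KRT15, a type I keratin of basal epidermal cells, was at 5.80 and 5.91 in U87MGR, 8.13 and 7.71 in U87MGL and 4.88 and 5.03 in U87MG. It fell in U87MGR against U87MGL (log2 fold change -2.06, SE 0.19, limma adjusted p = 0.0143; -2.11 within a batch) as the 1 call of the list there (median -0.16). It rose in U87MGL against U87MG by 2.97 (SE 0.19, limma adjusted p = 0.00339), as did KRT18, a keratin of simple epithelia, by 1.98 (SE 0.32, limma adjusted p = 0.0237), the 2 calls there (median 0.15). KRT18 was at 5.66 and 5.17 in U87MGR, 6.58 and 7.54 in U87MGL and 5.13 and 5.03 in U87MG. In U87MGR against U87MG the list had 0 limma calls (3 at an unadjusted p under 0.05; median 0.04), with NES at 1.18 (limma adjusted p = 0.218).

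Of 9 tested regulators of epithelial genes, limma called 0 in any comparison. The median was 0.11 for U87MGR over U87MGL, with 0 at an unadjusted p under 0.05 (8.85% of all genes). For U87MGR and U87MGL over U87MG it was -0.12 and -0.25, with 3 and 2 (20.8% and 23.3% of all genes). The repressor SNAI2 was bright throughout, at 11.27 and 10.90 in U87MGR, 11.14 and 11.26 in U87MGL and 11.72 and 11.19 in U87MG. ZEB1 was at 8.98 and 9.53 in U87MGR, 9.01 and 9.30 in U87MGL and 8.43 and 8.79 in U87MG. Its difference of U87MGR from U87MG was 0.64 (limma adjusted p = 0.194). ZEB2 went the other way, at 8.02 and 7.67 in U87MGR, 8.05 and 7.82 in U87MGL and 8.62 and 8.29 in U87MG. The difference of U87MGR from U87MG was -0.61 for ZEB2 (limma adjusted p = 0.153). The largest differences in the list were those of TWIST1, at -0.67 in U87MGR and -1.17 in U87MGL against U87MG (limma adjusted p = 0.238 and 0.0645).

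**Figure D4:**
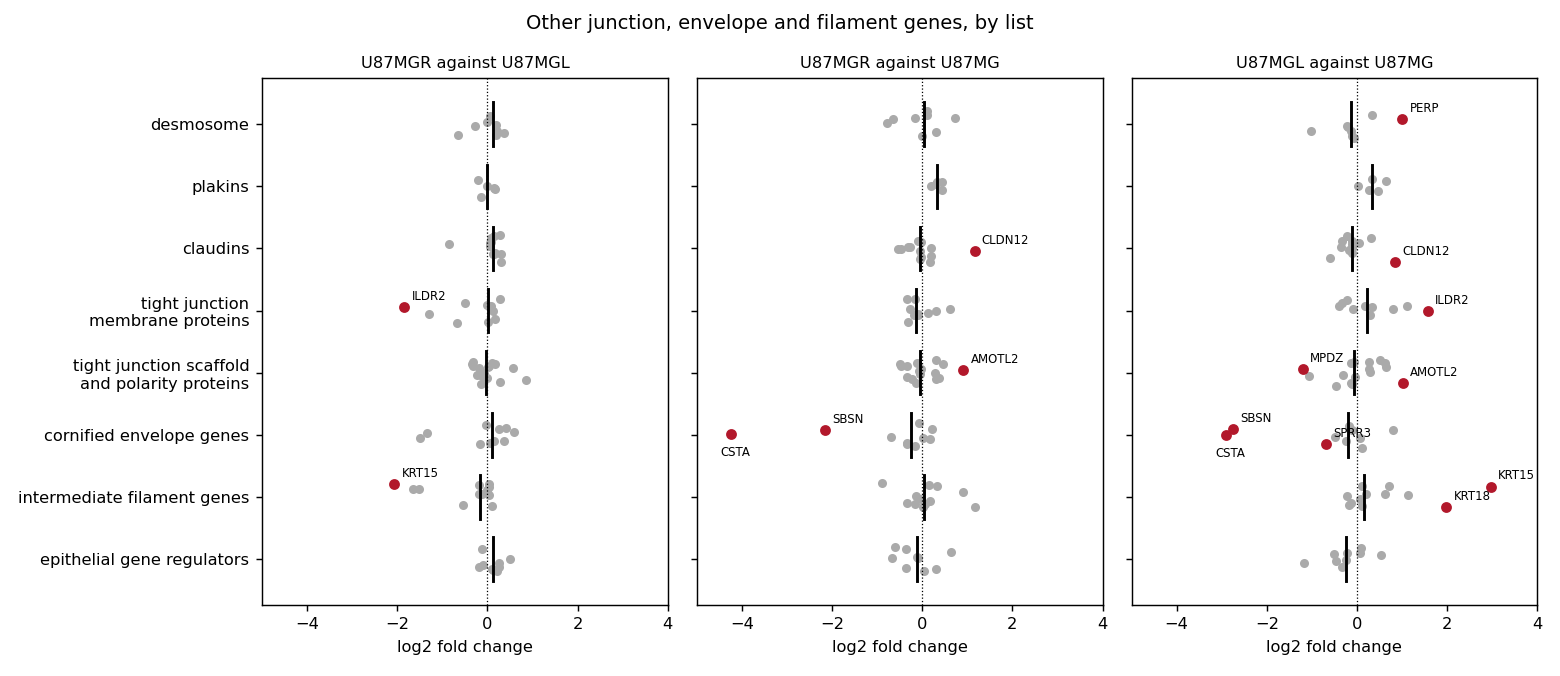
Log2 fold change (horizontal axis) of the tested genes of 8 lists in the 3 comparisons; each point is a gene, red and named where limma called it at an adjusted p under 0.05, and the black bar is the list's median. In the comparisons with U87MG, CSTA (-4.24 and -2.90) and SBSN (-2.16 and -2.75) lie lowest, and KRT15 (2.97) lies highest in U87MGL.

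Markers of cell types that normally carry these junctions were set beside the members. Of 7 epithelial markers on the array 3 passed the filter, and EPCAM, CDH1, KRT14 and KRT19 did not. Their summed signal was 7.68 and 7.53 (log2) in U87MGR, 8.05 and 8.42 in U87MGL and 7.58 and 7.56 in U87MG, with 1 call, that of KRT18 in U87MGL against U87MG. The U87MGL sums follow KRT18 (6.58 and 7.54), while KRT5 was at 5.37 and 5.10 and KRT14 at 3.83 and 3.76 there. Of 8 endothelial markers 6 passed the filter and 0 were called in limma, with sums of 8.50 and 8.35 in U87MGR, 8.26 and 8.35 in U87MGL and 8.38 and 8.67 in U87MG, and CDH5 and TIE1 did not pass. For 5 markers of arachnoid and meninges, where desmosomes and tight junctions also occur, the sums were 10.23 and 10.55 in U87MGR, 10.21 and 9.87 in U87MGL and 10.58 and 11.09 in U87MG, with 1 call in each comparison with U87MG. The glial sums were 9.19 and 9.06 in U87MGR, 9.37 and 9.43 in U87MGL and 10.19 and 10.49 in U87MG. The glial list had 1 call in each comparison with U87MG, and its sums follow SLC1A3, at 8.86 and 8.69 in U87MGR, 9.09 and 9.12 in U87MGL and 10.00 and 10.35 in U87MG. The meningeal sums of U87MGR replicate 2 and U87MG replicate 1 were close, at 10.55 and 10.58. The part of these markers in the PPL difference was not tested.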

How the data were processed

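The authors deposited a log2 signal for each of 54675 probe sets on 6 arrays, normalized between arrays; no source used here gives the method, and the scale was read from the values. They were used unchanged, and no detection calls were used here. Probe sets with 1 gene symbol (41097, of which 99.9% matched RefSeq GRCh38.p14 by gene number) were kept. Current symbols come from that match.

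One limma model (limma 3.58.1, R 4.3.3) with a mean per group was fitted to all 6 arrays and 14513 genes, with 3 residual and 4.05 prior degrees of freedom, and was tested on simulated data. With 2 arrays per group an exact permutation test cannot go below p = 0.333, so no such test was run. The precision is limited by the number of arrays: the median SE of a log2 fold change was 0.19.

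The members and gene lists were chosen with earlier results of these data known, and no p-value was adjusted over a list. All members were named. From each list up to 2 rising and 2 falling called genes were named, or up to 2 with the largest change where 0 were called. DSG2, SNAI2, VIM and further list genes, ECM2, TXNIP, IL1B, G0S2 and the chromosomal neighbours of PPL were chosen after their values were seen. Alternatives covered the filter, normalization, variance model, probe set, replicate block, spike-in batch and each array left out. The spike-in batches rest on 45 control probe sets. Equally numbered arrays did not deviate together: after group means were removed, correlations across genes were 0.01, 0.11 and -0.09 for the 3 pairs of groups, so replicate numbers were not treated as pairs.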

Additional observations from a re-analysis of the deposited data

How the results depend on the processing

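Of the 5 tested members other than PPL, 0 were called under any alternative in any comparison (limma; at most 1 at an unadjusted p under 0.05). Directions of small differences did not hold. In U87MGL against U87MG, OCLN (-0.04) was at 0.0165 with quantile normalization, 0.00778 with arrays centred on their medians, 0.13 with 2 spike-in batches as a block and 0.0551 with another probe set, and JUP (-0.07) was at 0.0463 with 2 batches. PKP2 in U87MGR against U87MG was at 0.016 with the mean of its probe sets and 0.16 with its other probe set, which gave 0.0735 in U87MGL against U87MG. OCLN in U87MGR against U87MGL was at 0.0615 with its dimmest probe set. With 1 array left out, JUP ranged from -0.11 to 0.11 in U87MGR against U87MGL, from -0.29 to 0.14 in U87MGR against U87MG and from -0.28 to 0.14 in U87MGL against U87MG. TJP1 ranged from -0.15 to 0.35 in U87MGR against U87MG, and OCLN from -0.20 to 0.12 in U87MGL against U87MG.

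Of all genes, limma called 23 in U87MGR against U87MGL, 479 in U87MGR against U87MG and 699 in U87MGL against U87MG. For U87MGR against U87MGL the count was 40 with no filter, 10 with a filter at the 60th percentile, 4 with 2 batches and 0 with 3 (1169 at an unadjusted p under 0.05), and 3 to 34 with 1 array left out. For U87MGR against U87MG it was 11 with 2 batches, 231 with 3 and 1 to 877 with 1 array left out. For U87MGL against U87MG it was 0 with 2 or 3 batches (unadjusted 1236 and 2226) and 37 to 1550 with 1 array left out. Of the 16 list calls, 5 and 4 remained without U87MGR replicates 1 and 2, 6 and 5 without U87MGL replicates 1 and 2, and 15 and 9 without U87MG replicates 1 and 2; the cause was not tested. The replicate block left 28, 363 and 602 genes called in these comparisons and 13 of the 16 list calls.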

Other observations

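The genes next to PPL on chromosome 16 did not share its pattern. The 5 nearest tested genes on either side in RefSeq order, from SEPTIN12 to RBFOX1, differed by -0.31 to 0.29 (log2) in U87MGR against U87MG, where PPL differed by -3.75. Between the U87MGL arrays they differed by -0.32 to 0.25, where PPL differed by 2.50. SMIM22 (4.74 to 5.17) and C16orf89 (4.67 to 5.29) were dim, so a fall like that of PPL may not be measurable in them.

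Other genes parted the U87MGL arrays as widely as PPL did. Gaps at least as wide were found for 5 genes between the U87MGL arrays, PPL included. They were found for 5 genes between the U87MGR arrays and for 12 between the U87MG arrays. ECM2, a matrix protein, was at 7.47 and 4.71 in U87MGL, with 6.17 and 6.19 in U87MGR and 6.92 and 7.01 in U87MG. TXNIP, the thioredoxin-interacting protein, was at 6.75 and 10.10 in U87MGL, with 10.64 and 10.21 in U87MGR and 6.45 and 6.11 in U87MG, so that U87MGL2 lay near the parental cells and U87MGL3 near the invasive ones. IL1B, the cytokine interleukin-1 beta, was at 9.67 and 12.91 in U87MGL. It also differed between replicates elsewhere, at 12.85 and 11.41 in U87MGR and 11.06 and 9.71 in U87MG. G0S2, an inhibitor of triglyceride lipase, was at 6.82 and 9.35 in U87MGL, on either side of U87MGR (7.65 and 7.79) and U87MG (7.93 and 7.63). With 1 array each of U87MGL2 and U87MGL3, these differences were not tested.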
